A study of Mus musculus with 4 samples.

Results

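The MAP kinase feedback inhibitors are proteins that the kinase pathway switches on and that then switch the pathway off. Growth factors bound to receptor tyrosine kinases activate Ras, which starts a relay of kinases that ends in ERK. The phosphatases Dusp1, Dusp4, Dusp5, Dusp6 and Dusp14 remove phosphate from MAP kinases, Spry2 and Spry4 hold back signalling between the receptor and Ras, Spred1 and Spred2 bring neurofibromin to the membrane to silence Ras, and Errfi1 blocks the kinase domain of the EGF receptor. Many of these genes are transcribed within minutes to hours of a stimulus, and in the hippocampus neuronal firing is one such stimulus.

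These 10 genes were chosen by symbol from the 32285 features of the count matrices, with earlier results of these data known, and each symbol was found once. The data were single-nucleus RNA sequencing of the hippocampus, both hemispheres, from 2 WT libraries and 2 libraries of heterozygous Cyfip2+/R87C knock-in mice (KI), a mouse model of West syndrome, an infantile epilepsy. The study describes adult mice on the C57BL/6N background and the use of both sexes, and the labels give all 4 libraries the same batch and no sex. Per the study, these nuclei came from the oldest of the ages it profiled, at which it reports recurrent seizures in KI mice. The knock-in allele is in every cell and not limited to a tissue. KI replicate 2 carries the allele name R88C in one label and R87C in another, and was counted as KI from its genotype label. The labels number the libraries as replicates without naming the animal behind each, so every p-value here measures the spread between these libraries.

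The libraries held 12665 to 16055 nucleus barcodes each, and 52032 of 55640 passed the filters. The total was 73009975 to 80913580 UMIs (unique molecular identifiers, each standing for 1 captured RNA molecule) per library, and the median per nucleus kept was 3868 to 4699. Pairs of libraries shared 40 to 67 barcodes. The nuclear RNA Malat1 took 8.90% and 8.71% of the UMIs in WT and 13.7% and 12.2% in KI, and the part of this difference in the results below was not tested. Nuclei were clustered, clusters were named from marker genes as classes, and UMIs were summed per library and class. Of 18 named classes, 15 had at least 20 nuclei in every library. Levels are given in CPM, the UMIs of a gene after scaling that sum to 1000000. The mutated gene itself, Cyfip2, stood over all nuclei at 182 and 180 CPM in WT and at 172 and 171 CPM in KI. A count per gene cannot separate the alleles, so this level does not check the genotype. Summed markers checked the names of classes: those of CA1 were at 881 to 1218 in CA1 pyramidal neurons against 63.4 to 84.1 in dentate gyrus (DG) granule neurons, and those of oligodendrocytes at 9925 to 11249 in oligodendrocytes against 339 to 526 in DG granule neurons. Fibroblasts were less distinct, with their own 10 markers at 3043 to 4024 and the 9 astrocyte markers at 2333 to 4066, the latter above the former in WT replicate 2.

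Sequence before the transcription start was read for the members with an entry in the set of RefSeq promoters used here (GRCm38.p6), 8 of 10, over 250 bases. That set held no entry for Dusp4 and Spry4. The core of the cAMP response element, TGACGT, to which the factor CREB binds, stood on either strand in 4 of the 8, Spred2, Errfi1, Dusp1 and Dusp5, against 6.47% of all 32851 promoters of this length. These 4 windows are shown because they share the core while their genes went different ways in KI, as described below: Spred2 was lower in DG granule and CA1 pyramidal neurons, Errfi1 was higher in oligodendrocytes and fibroblasts, and Dusp1 and Dusp5 were called in neither direction. Capitals mark this core, the ETS core CGGAAG and the CArG box on either strand, and matches that overlap, as in a palindrome, run together.
Spred2: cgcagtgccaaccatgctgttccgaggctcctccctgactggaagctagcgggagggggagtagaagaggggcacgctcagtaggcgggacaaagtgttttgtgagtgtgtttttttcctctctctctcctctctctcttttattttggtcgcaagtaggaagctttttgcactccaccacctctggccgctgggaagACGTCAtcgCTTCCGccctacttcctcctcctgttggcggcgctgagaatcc
Errfi1: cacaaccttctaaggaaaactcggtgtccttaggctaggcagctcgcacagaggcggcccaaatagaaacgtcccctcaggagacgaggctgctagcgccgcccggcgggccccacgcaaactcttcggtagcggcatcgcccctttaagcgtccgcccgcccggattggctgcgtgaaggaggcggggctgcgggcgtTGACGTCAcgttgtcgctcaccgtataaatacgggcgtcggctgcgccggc
Dusp1: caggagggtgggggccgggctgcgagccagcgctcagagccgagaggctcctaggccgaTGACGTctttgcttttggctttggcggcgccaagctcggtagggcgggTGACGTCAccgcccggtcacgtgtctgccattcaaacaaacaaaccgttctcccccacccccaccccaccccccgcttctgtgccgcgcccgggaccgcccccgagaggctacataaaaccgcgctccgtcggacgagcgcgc
Dusp5: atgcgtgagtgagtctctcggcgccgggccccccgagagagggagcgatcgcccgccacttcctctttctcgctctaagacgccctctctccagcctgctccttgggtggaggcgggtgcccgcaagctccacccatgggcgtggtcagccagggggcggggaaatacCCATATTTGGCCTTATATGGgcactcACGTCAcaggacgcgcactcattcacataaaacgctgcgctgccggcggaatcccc

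The Spred2 window (chr11:19924192-19924441, plus strand) holds the core 52 bases and an ETS core 43 bases before the start. Errfi1 has 2 RefSeq starts, and the window shown (chr4:150854820-150855069, plus strand) was picked because it holds the core in both directions as 1 palindrome, 51 bases before the start. The other window of Errfi1 holds none of the 4 motifs. Dusp1 (chr17:26508473-26508722, minus strand) holds the core 191 bases before its start and as a palindrome 143 bases before it. This start lies 53656 bases inside the GENCODE gene model. Dusp5 (chr19:53528895-53529144, plus strand) holds it 56 bases before, after 2 CArG boxes 82 and 72 bases before. The CArG box stood in 1.47% of all promoters and in 1 of 8 members, the ETS core in 13.6% and in 4 of 8 (Dusp6, Dusp14, Spred1 and Spred2), and the AP-1 site TGANTCA in 6.75% and in 0 of 8. The Spry2 window held none of the 4. A match describes these letters and is not a measured binding site.

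Among classes, the 10 genes were spread very differently. Levels between classes were tested in 7 pairs of classes from the same libraries, by the quasi-likelihood test of edgeR with the library as a block and p-values adjusted over all genes (Benjamini-Hochberg), and 40 of 63 member-by-pair terms passed an adjusted p of 0.05. Between 35.3% and 51.1% of all genes passed in the same pairs, and the count of members is to be read against these shares.

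**Figure D1:**
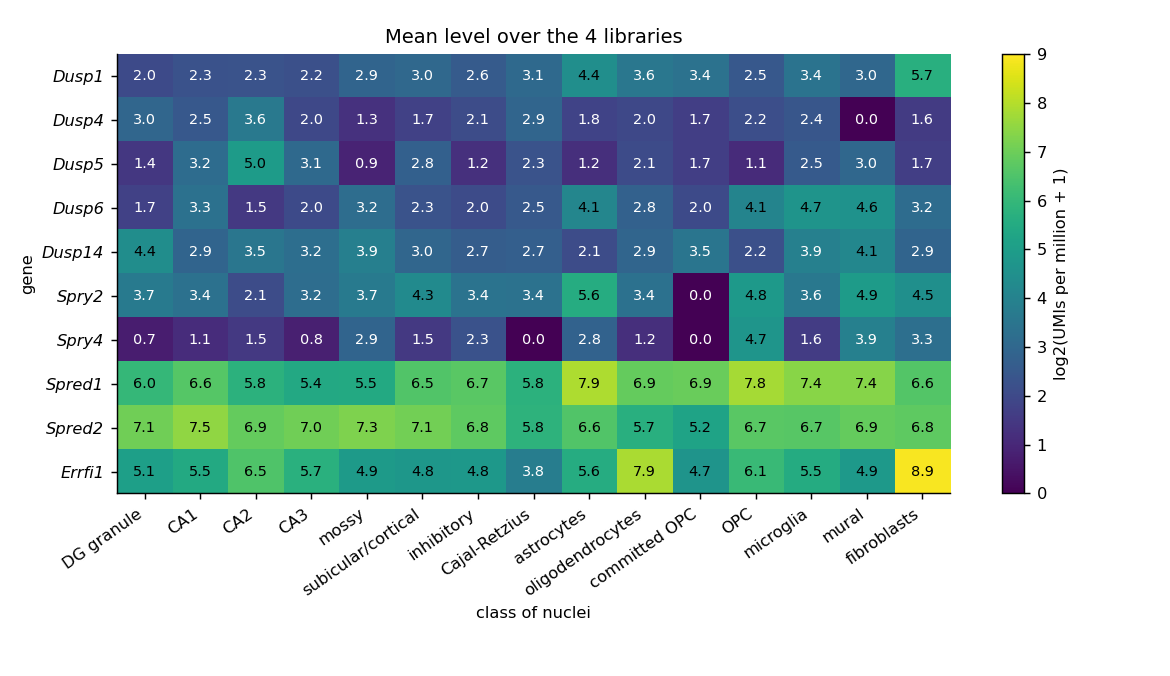
Mean level over the 4 libraries of each gene (rows) in each of 15 classes (columns), as log2 of CPM plus 1, written in each cell and shown by colour. Values are to be read along a row, where Errfi1 stands highest in fibroblasts and oligodendrocytes and Dusp5 in CA2 pyramidal neurons.

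Dusp5, a nuclear phosphatase of ERK, was highest in CA2 and higher in CA1 and CA3 than in DG. In CA2 pyramidal neurons it was at 40.0 and 38.2 CPM in WT and 18.7 and 22.7 in KI, above every library of the class next in order, CA1, at 4.75 to 10.3. DG granule neurons held 1.28 to 2.17. The log2 difference in level was 2.35 ± 0.27 (SE) for CA1 against DG (edgeR adjusted p = 0.000807), 2.25 ± 0.24 for CA3 against DG and -2.65 ± 0.29 for inhibitory neurons against CA1. CA1 against CA3 (0.10 ± 0.13, edgeR adjusted p = 0.597) and inhibitory neurons against DG (-0.44 ± 0.33, edgeR adjusted p = 0.301) did not pass. Dusp5 overlaps AC137853.2 on the opposite strand, so its counts could be shared where strand was not used. Dusp6, the cytoplasmic phosphatase of ERK, was also higher in CA1 than in DG (2.10 ± 0.14) and in CA3 (1.58 ± 0.16), and reached 12.3 to 30.5 in astrocytes and microglia.

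Dusp14, a small phosphatase of the same family, ran the other way. DG granule neurons held 24.5 and 24.5 CPM in WT and 15.6 and 17.5 in KI, against 5.81 to 6.77 in CA1 pyramidal neurons, with no overlap between the classes. The log2 difference was -1.56 ± 0.16 for CA1 against DG, -1.18 ± 0.10 for CA3 against DG and -2.04 ± 0.11 for inhibitory neurons against DG. Dusp4, a nuclear phosphatase of ERK and JNK, was highest in CA2 (9.03 to 12.6), above DG granule neurons (5.16 to 8.29), where it exceeded CA3 by 1.14 ± 0.18 and inhibitory neurons by 1.19 ± 0.20 on the log2 scale. Dusp1, the phosphatase best known as an immediate early gene, had a mean of 3.11 CPM in DG to 7.26 in subicular or cortical neurons, with CA1, CA3 and inhibitory neurons between, and of 49.6 in fibroblasts, where 1 to 22 UMIs per library gave a range of 4.65 to 97.6.

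The Sprouty genes were highest in glia. Spry2 was highest in astrocytes, at 46.3 and 56.6 CPM in WT and 37.3 and 47.5 in KI, with every library above those of the class next in order. It exceeded oligodendrocytes by 2.30 ± 0.22 on the log2 scale. Spry4 was highest in oligodendrocyte precursors (OPC), at 29.4 and 29.3 in WT and 33.5 and 7.99 in KI, the last from 3 UMIs. OPC exceeded mature oligodendrocytes, at 0.755 to 2.03, by 4.34 ± 0.41, the largest of the 40 differences in level that passed the test. Inhibitory neurons also held more Spry4 than DG granule neurons (2.44 ± 0.34) and CA1 pyramidal neurons (1.48 ± 0.27).

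Spred1 and Spred2 differed in their order of classes. Spred1 was highest in astrocytes (195 to 270) and OPC (200 to 245) and lowest in CA3 (30.8 to 49.6), and CA1 exceeded CA3 by 1.22 ± 0.11. Spred2 was highest in CA1, at 227 and 208 in WT and 132 and 148 in KI, and among the large classes lowest in oligodendrocytes, at 67.2 and 66.5 in WT and 39.0 and 27.2 in KI. CA1 exceeded DG by 0.63 ± 0.12 and CA3 by 0.46 ± 0.07, and inhibitory neurons stood at -0.93 ± 0.07 to CA1. Errfi1 was highest in fibroblasts and oligodendrocytes. Astrocytes stood at -2.31 ± 0.14 and OPC at -1.65 ± 0.14 to oligodendrocytes on the log2 scale.

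By pair, 6 of 10 genes passed for CA1 against DG (39.8% of all genes), 5 of 9 for CA3 against DG (45.7%), 5 of 10 for CA1 against CA3 (35.3%), 5 of 10 for inhibitory neurons against DG (51.1%), 6 of 10 for inhibitory neurons against CA1 (49.2%), 6 of 7 for astrocytes against oligodendrocytes (39.6%) and 7 of 7 for OPC against oligodendrocytes (41.3%).

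Across the 60 sums of 15 classes and 4 libraries, the genes whose levels ran most like Spred2 were Hivep2 (Pearson r = 0.73), Gabra5 (0.72) and Nsf (0.69), among 12953 genes with a mean of at least 5 CPM. For Errfi1 they were Apmap (0.74), Atp1b3 (0.72) and Dph3 (0.72), for Spry2 Tpcn1 (0.72), Bcl2 (0.71) and 4833422C13Rik (0.70), and for Dusp5 Mirt1 (0.70), St8sia6 (0.65) and Rgs14 (0.61). The nearest were Cpsf2 (0.69), Glo1 (0.66) and Zbtb33 (0.66) for Dusp1, Tmem28 (0.68), Gm13481 (0.68) and BC024978 (0.67) for Dusp4, Dhrs7 (0.66), Pdcl (0.65) and Stx4a (0.64) for Dusp6, and Nr2c2ap (0.68), Ppp1r13b (0.63) and Acad11 (0.63) for Dusp14. They were Plscr4 (0.66), Gm5820 (0.66) and Prrx1 (0.66) for Spry4 and Gm13684 (0.70), Pik3r1 (0.70) and Zcchc24 (0.68) for Spred1. The sums share libraries and differ widely in depth, so these values only describe. Between members the highest was 0.46, for Spry2 with Spry4.

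Which of these genes differ with the R87C allele, and in which cells, was asked by comparing KI with WT within each class. Spred2 was lower in KI in DG granule and CA1 pyramidal neurons, Spry2 was lower in CA1 pyramidal neurons, and Errfi1 was higher in oligodendrocytes and fibroblasts. These were 5 of 88 member-by-class values that had enough counts to test, out of 150, by the same test on the libraries of each class without a block. Of all gene-by-class values in the 14 classes with a member tested, 2.64% were called. At an unadjusted p below 0.05 there were 24 lower and 5 higher of the 88, against 7.48% lower and 8.70% higher of all values. The fitted log2 change was below 0 for 62 of the 88 and above 0 for 26, with a median of -0.31. Over all genes, the medians in the 14 classes with a member tested ran from -0.01 to 0.01. The 88 values repeat the same genes over classes of the same libraries and are not independent of each other, so these counts only describe. Spred2 alone gave 9 of the 24 lower values and 13 of the 62 below 0. Errfi1 gave 4 of the 5 higher values.

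**Figure D2:**
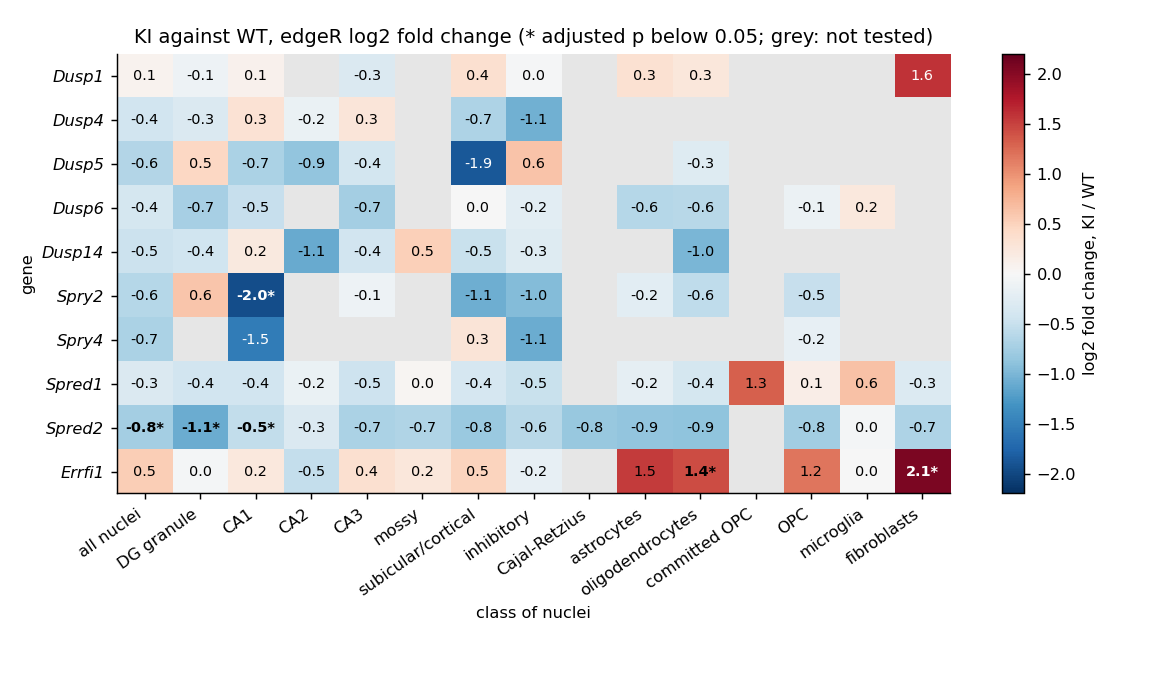
Log2 fold change of KI over WT from edgeR for each gene (rows) in all nuclei and in 14 classes (columns), with 2 WT and 2 KI libraries. Asterisks mark an adjusted p below 0.05 and grey cells were not tested. Spred2 lies below 0 in each class tested, from -1.09 to -0.04, and Errfi1 reaches 2.07 in fibroblasts.

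Among the 10 genes, Spred2 had the most classes with an unadjusted p below 0.05, 9 of 13, and was called in 2. That p was reached by 5.97% to 29.2% of all genes, by class. In DG granule neurons, from 2223 to 4303 nuclei per library, it was at 188 and 182 CPM in WT and at 76.3 and 82.1 in KI. The groups did not overlap, the WT mean was 2.33 times the KI mean, and the log2 change was -1.09 ± 0.09 (SE; edgeR adjusted p = 0.0034). In CA1 pyramidal neurons, from 1574 to 2295 nuclei, the libraries read 227 and 208 in WT and 132 and 148 in KI, a log2 change of -0.55 ± 0.09 (edgeR adjusted p = 0.0194), again without overlap. In DG, 9.62% of all genes tested were called, and 7.86% in CA1, where the call for Spred2 rested on both WT libraries: without WT replicate 1 the edgeR adjusted p was 0.202 and without WT replicate 2 it was 0.0608.

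The other classes gave the same sign for Spred2 without passing the main edgeR test on all 4 libraries. CA3 pyramidal neurons were at 188 and 142 in WT and 84.3 and 110 in KI (-0.69 ± 0.17, edgeR adjusted p = 0.0605). Inhibitory neurons were at 134 and 137 in WT and 81.8 and 83.1 in KI (-0.62 ± 0.11, edgeR adjusted p = 0.116), and oligodendrocytes stood at -0.88 ± 0.22 (edgeR adjusted p = 0.101). In all 3 classes each KI library lay below each WT library. Without KI replicate 1 or KI replicate 2, CA3 stood at -0.55 and -0.86 and oligodendrocytes at -1.28 and -0.68. The CA3 class held 7 clusters, of which some came mostly from 1 genotype or from 1 library. One had 361 and 142 nuclei in WT and 0 and 3 in KI. Another came mostly from KI replicate 1, with 0 and 0 in WT and 411 and 6 in KI. Yet another came mostly from KI replicate 2, with 2 and 1 against 1 and 282. The inhibitory class included a cluster with Zic1 and Zic4 among its leading genes, which held 477 and 36 nuclei in WT and 196 and 476 in KI. Without that cluster, an alternative chosen after seeing the data, the adjusted p was 0.030 at -0.63 ± 0.11. In the 13 classes where Spred2 was tested, both KI libraries lay below both WT libraries in 11 and overlapped with them in 2. Of all gene-by-class values in these classes 30.6% lay the same way, from 19.3% in microglia to 43.0% in DG. All 13 classes tested gave a value below 0. Neuronal markers were also counted in other classes: the 7 markers of DG granule neurons summed to 2385 and 2476 CPM in WT and 2137 and 1661 in KI within oligodendrocytes, and to 583 and 516 against 501 and 515 within fibroblasts. The 13 values come from the same 4 libraries and are not independent of each other, and the part of RNA from other classes in them was not tested. Microglia, at 115 and 89.3 in WT and 92.5 and 104 in KI, gave the value nearest to 0 (-0.04 ± 0.29).

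**Figure D3:**
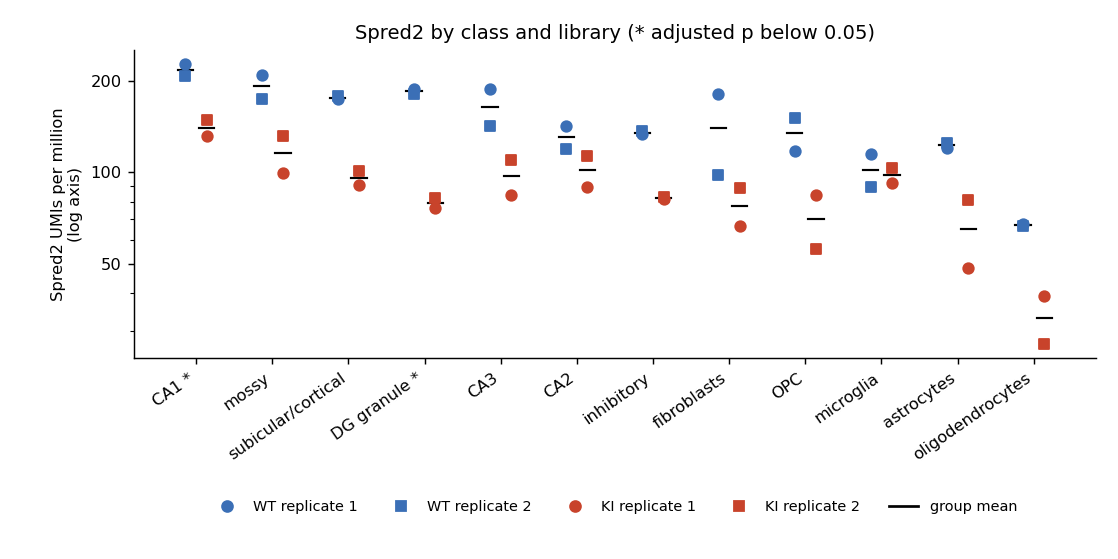
Spred2 level in each library (points, log axis, CPM) in 12 of the 13 classes where it was tested, ordered by their mean, with WT in blue, KI in red, black bars for group means, and asterisks for an adjusted p below 0.05. Cajal-Retzius cells were tested and are not shown. The WT and KI points are apart in CA1 and DG granule neurons and mix in microglia.

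Summed over all nuclei, Spred2 was at 176 and 167 in WT and 93.9 and 102 in KI, a log2 change of -0.75 ± 0.08 (edgeR adjusted p = 0.0366). It was the single member called there, 1 of 10, and 0.889% of all genes were called. In such a sum, fewer nuclei of a class and less RNA per nucleus cannot be told apart. Without WT replicate 1 the edgeR adjusted p was 0.0759. Per nucleus, Spred2 gave 0.783 and 0.841 UMIs in WT and 0.370 and 0.358 in KI in DG granule neurons, where the median depth was 3735 to 4408 UMIs. Oligodendrocytes, at a median depth of 1346 to 1480 UMIs, gave 0.0421 to 0.107.

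The DG granule class consisted of 2 clusters that divided by genotype: one led by Dsp and Glis3 held 4120 and 3135 nuclei in WT against 222 and 657 in KI, and one led by Gm6999 and Plpp4 held 183 and 152 in WT against 2256 and 1566 in KI. The members were left out of the genes used for clustering. Within DG granule neurons the class's own 7 markers summed to 4261 and 4157 CPM in WT and 3211 and 3744 in KI, and the 8 markers of inhibitory neurons to 1658 and 1577 against 1230 and 1174. Astrocyte markers, 9 in number, summed to 1144 and 1116 CPM in WT and 663 and 866 in KI, and the 7 markers of mossy cells to 59.0 and 63.4 against 36.6 and 39.1. Their part in the Spred2 result was not tested. The gene lies on chromosome 11 from 19924375 to 20024026 on the plus strand (GRCm38), 26.2 Mb from Cyfip2, and its promoter window with the core was printed above. Of the other genes within 1 Mb of it, 0 of 9 tested were called in DG and 0 of 9 in CA1.

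Spry2, an inhibitor that acts between receptor and Ras, was called lower in 1 class, the CA1 pyramidal neurons. There it was at 15.4 and 14.6 CPM in WT and 3.14 and 4.16 in KI, from 196, 158, 39 and 47 UMIs. The groups did not overlap and the log2 change was -1.95 ± 0.20 (edgeR adjusted p = 0.0043). Leaving out any 1 library, the value stayed between -2.12 and -1.81 and was called each time. With nuclei assigned by their markers alone, without clusters, it was -1.15 (edgeR adjusted p = 0.0498). Within CA1 the class's own 7 markers summed to 1218 and 1194 CPM in WT and 1060 and 881 in KI, and the 9 astrocyte markers, of the class where Spry2 was highest, to 189 and 200 against 117 and 134. The 8 endothelial markers summed to 19.6 and 20.4 in WT and 42.8 and 56.3 in KI. Their part in the Spry2 result was not tested.

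DG granule neurons gave Spry2 levels of 9.24 and 10.8 in WT and 9.91 and 18.4 in KI, so the groups overlapped and KI replicate 2 stood highest (0.61 ± 0.28, edgeR adjusted p = 0.206). Without KI replicate 1, Spry2 in DG stood at 0.98 and was called (edgeR adjusted p = 4.65e-09). The difference of the KI effect between CA1 and DG, tested as a class-by-genotype term, was -2.57 ± 0.23 (edgeR adjusted p = 6.25e-06), and -1.62 with nuclei assigned by their markers alone. CA3 pyramidal neurons, at 10.2 and 7.40 in WT and 8.19 and 7.18 in KI, had overlapping groups. The same term for CA1 against CA3 was -1.84 ± 0.28 (edgeR adjusted p = 0.000574), and the call was lost with nuclei assigned by their markers alone (-1.47, edgeR adjusted p = 0.101). Inhibitory neurons were at 10.0 and 16.6 in WT and 5.46 and 7.18 in KI (-0.96 ± 0.30, edgeR adjusted p = 0.246), called without WT replicate 1 (-1.30, edgeR adjusted p = 0.030). Their term against DG was -1.56 ± 0.26, and it was lost without WT replicate 2 (edgeR adjusted p = 0.0862) or KI replicate 2 (0.0639). Subicular or cortical excitatory neurons were at 31.2 and 21.3 in WT and 12.1 and 11.2 in KI, without overlap (-1.07 ± 0.29, edgeR adjusted p = 0.622). In that class 0% of all genes tested were called, 0 of 14073 by edgeR, with 1078 at an unadjusted p below 0.05. In astrocytes, where Spry2 was highest, the libraries overlapped and the change was -0.23 ± 0.27. Spry2 lies on chromosome 14 from 105891947 to 105896819 on the minus strand (GRCm38). Of the other genes within 1 Mb of it, 1 of 6 tested was called in CA1 and 1 of 7 in DG, where 7.86% and 9.62% of all genes were called. This was Ndfip2 in both classes, lower in CA1 and higher in DG.

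**Figure D4:**
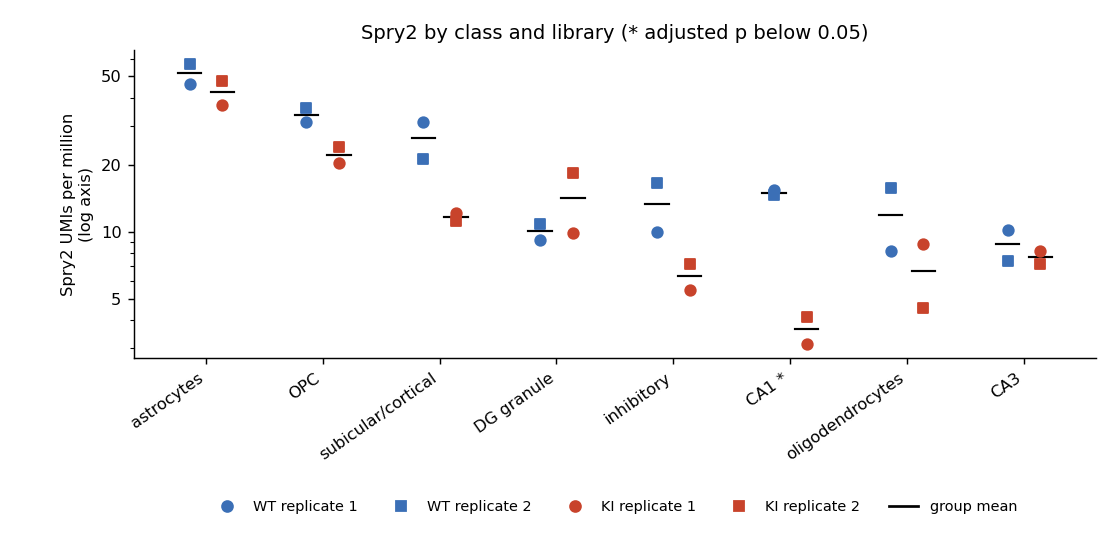
Spry2 level in each library (points, log axis, CPM) in the 8 classes where it was tested, ordered by their mean, with WT in blue, KI in red, black bars for group means and an asterisk for an adjusted p below 0.05. The KI points lie far below the WT points in CA1 and mix with them in CA3 and astrocytes.

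Errfi1 was called higher in KI, in oligodendrocytes and fibroblasts. In oligodendrocytes, from 855 to 2113 nuclei per library in 1 cluster, it was at 139 and 120 CPM in WT and 389 and 273 in KI. The KI mean was 2.56 times the WT mean without overlap, with a log2 change of 1.44 ± 0.21 (edgeR adjusted p = 0.0185). The class held 2047 and 1227 nuclei in WT and 2113 and 855 in KI. With clusters at a finer resolution these were 2028 and 1219 in WT but 1187 and 752 in KI. Errfi1 then stood at 1.38 ± 0.20 (edgeR adjusted p = 0.0119). Per nucleus, oligodendrocytes gave on average 0.215 and 0.192 UMIs in WT and 0.628 and 0.423 in KI, while DG granule neurons gave 0.128 to 0.164 at a deeper median. In fibroblasts, with 68 to 124 nuclei and 30 to 169 UMIs of Errfi1 per library, the level was 236 and 158 in WT and 864 and 657 in KI (2.07 ± 0.34, edgeR adjusted p = 0.0059). The groups did not overlap. The call in fibroblasts was lost without WT replicate 1 (edgeR adjusted p = 0.082) or WT replicate 2 (0.590), and with clusters at a finer resolution (0.0879). With nuclei assigned by their markers alone, both calls of Errfi1 were lost, at 1.36 in oligodendrocytes (edgeR adjusted p = 0.0622) and 1.63 in fibroblasts (0.0564).

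Astrocytes and OPC gave Errfi1 values of like size that missed the threshold. Astrocytes were at 28.0 and 21.0 in WT and 72.7 and 65.9 in KI (1.54 ± 0.27, edgeR adjusted p = 0.0995), and OPC at 57.1 and 34.2 in WT and 115 and 66.6 in KI (1.18 ± 0.30, edgeR adjusted p = 0.0525). In both classes the groups did not overlap. The value in astrocytes was called without WT replicate 1, KI replicate 1 or KI replicate 2 (edgeR adjusted p = 0.0389, 0.000854 and 5.84e-05), and that in OPC without WT replicate 1 (0.0296) or KI replicate 2 (6.12e-06). The KI effect on Errfi1 was not shown to differ between astrocytes and oligodendrocytes (0.13 ± 0.29) or between OPC and oligodendrocytes (-0.30 ± 0.30). In neurons the values were smaller and of both signs: 0.23 ± 0.11 in CA1, 0.35 ± 0.16 in CA3, -0.05 ± 0.13 in DG and -0.52 ± 0.18 in CA2 (edgeR adjusted p = 0.157), where the libraries read 103 and 113 in WT and 77.1 and 66.3 in KI. Over all nuclei Errfi1 was at 44.6 and 38.7 in WT and 65.9 and 50.2 in KI (0.53 ± 0.17, edgeR adjusted p = 0.148). Microglia overlapped, at 49.6 and 43.6 in WT and 67.0 and 23.0 in KI.

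**Figure D5:**
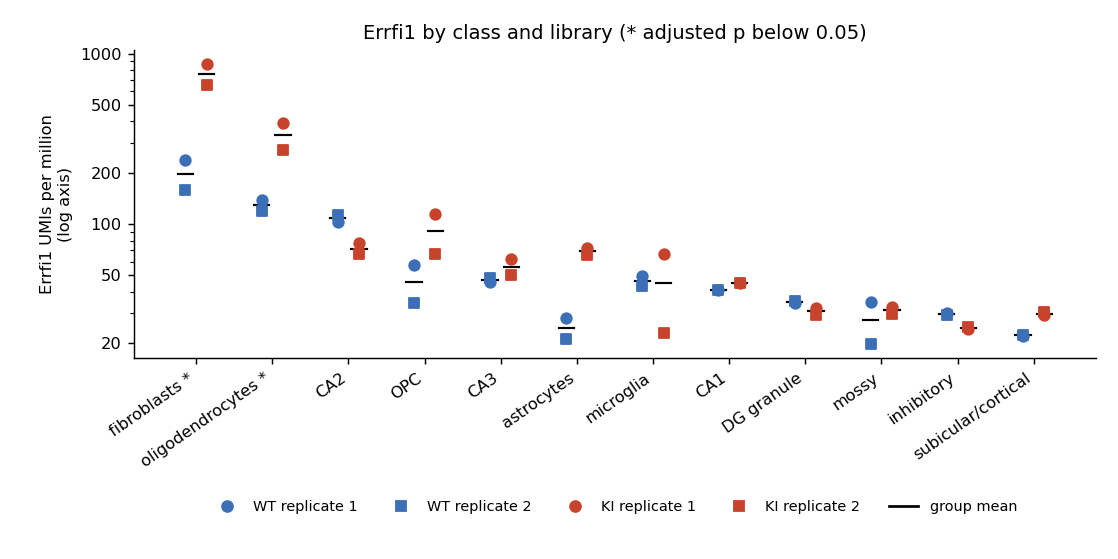
Errfi1 level in each library (points, log axis, CPM) in 12 classes ordered by their mean, with WT in blue, KI in red, black bars for group means and asterisks for an adjusted p below 0.05. KI lies above WT in fibroblasts, oligodendrocytes, OPC and astrocytes and below WT in CA2.

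Of all genes tested, 0.945% were called in oligodendrocytes, 0.062% in fibroblasts, 0.0187% in astrocytes and 1.10% in OPC. Within oligodendrocytes, the 8 markers of inhibitory neurons summed to 523 and 435 CPM in WT and 680 and 648 in KI, and the 9 astrocyte markers to 651 and 657 against 484 and 557. Larger shifts were seen in the 6 Cajal-Retzius markers (74.5 and 62.5 in WT, 89.4 and 191 in KI), the 8 endothelial markers (16.0 and 12.2 against 36.9 and 18.1) and the 6 markers of committed OPC (599 and 578 against 518 and 299). Within fibroblasts, the class's own 10 markers summed to 3672 and 4024 in WT and 3171 and 3043 in KI, and the 9 astrocyte markers to 2624 and 4066 against 2619 and 2333. The largest shift there was in the 6 Cajal-Retzius markers, from 165 and 177 to 56.3 and 84.3. The OPC class held 2 clusters, one with 249 and 236 nuclei in WT and 30 and 128 in KI, the other with 17 and 7 against 269 and 40. The part of these shifts in the Errfi1 values was not tested. Errfi1 lies on chromosome 4 from 150853919 to 150868892 on the plus strand (GRCm38) and overlaps 1700045H11Rik on the opposite strand. Whether the counting used strand is not given in the sources used here, so UMIs of the 2 genes might be mixed.

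Spred1, the close relative of Spred2, was called in no class by the main edgeR setting or DESeq2, with an unadjusted p below 0.05 in 2 of 13. With the replicate number as a block it was called in DG (edgeR adjusted p = 0.0298) and CA1 (0.0383). Without the filter on low counts it was called in inhibitory neurons (edgeR adjusted p = 0.0174). DG granule neurons were at 77.2 and 71.0 in WT and 63.1 and 37.1 in KI, and CA1 pyramidal neurons at 118 and 112 against 95.3 and 65.3. The groups did not overlap in either class, and KI replicate 2 was lowest in both. The log2 changes were -0.42 ± 0.25 and -0.41 ± 0.19. Without KI replicate 1 they were -0.90 and -0.78 and both were called (edgeR adjusted p = 5.33e-18 and 7.71e-10). CA3 gave -0.46 ± 0.15 (edgeR adjusted p = 0.130) and inhibitory neurons -0.48 ± 0.15 (edgeR adjusted p = 0.238). Of the 13 Spred1 values, 9 were below 0 and 4 above. In microglia Spred1 stood at 1.17 without KI replicate 2. Spry4, counted with 4 to 27 UMIs per library in CA1, was at 2.12 and 1.57 in WT and 0.806 and 0.354 in KI (-1.55 ± 0.49, edgeR adjusted p = 0.097), and it was called without KI replicate 1 (-2.32, edgeR adjusted p = 0.00939). In inhibitory neurons it was at 4.89 and 5.86 in WT and 2.48 and 2.24 in KI (-1.09 ± 0.32, edgeR adjusted p = 0.230).

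With all 4 libraries, the 5 phosphatases were called in no class by edgeR or DESeq2. With all 4 libraries, an unadjusted p below 0.05 was reached with a higher value by Dusp1 in 1 of 8 classes, and with a lower value by Dusp4 in 1 of 6, Dusp5 in 3 of 7 and Dusp14 in 3 of 8, while Dusp6 reached it in 0 of 9. The shares of all values given above were 7.48% lower and 8.70% higher. Dusp5 in CA2 pyramidal neurons, with the 4 libraries given above and no overlap, gave -0.87 ± 0.26 (edgeR adjusted p = 0.097). In CA1 it was at 10.1 and 10.3 in WT and 4.75 and 7.17 in KI (-0.69 ± 0.23, edgeR adjusted p = 0.105), while in DG the groups overlapped (0.46 ± 0.35). Without KI replicate 2, Dusp5 was called in CA1 (edgeR adjusted p = 0.000101) and CA2 (0.0142). The Dusp5 effects in CA1 and DG differed by -1.18 ± 0.35 (edgeR adjusted p = 0.039), a call that was lost in 7 of 11 alternatives, leaving out any 1 library among them. Dusp14 in DG, again at the levels given above, gave -0.43 ± 0.13 (edgeR adjusted p = 0.093) without overlap, and in CA1 it stood at 5.81 and 6.37 in WT and 6.77 and 6.55 in KI (0.22 ± 0.21). Dusp14 in DG was called without KI replicate 1 (edgeR adjusted p = 0.0227) or KI replicate 2 (0.00102). These effects in DG and CA1 differed by 0.65 ± 0.19 (edgeR adjusted p = 0.0396), a call lost in 5 of 11 alternatives, with WT replicate 1, WT replicate 2 or KI replicate 1 left out among them.

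Dusp6 differed more between the KI libraries than between the group means in CA1 and over all nuclei. In CA1 it was at 10.7 and 11.5 in WT but 10.1 in KI replicate 1 and 4.34 in KI replicate 2 (-0.50 ± 0.37), and over all nuclei at 5.87 and 6.28 in WT, 6.24 in KI replicate 1 and 2.66 in KI replicate 2. Without KI replicate 1 it was called in CA1 (-1.31), DG (-1.29) and all nuclei (-1.17). Leaving out KI replicate 1 or KI replicate 2 gave 19 member-by-class calls each, against 6 and 4 without WT replicate 1 or WT replicate 2, and the spread is then taken from the group left with both libraries. The shares of all genes move with it: in DG, 1575 genes were called with all 4 libraries, 4499 and 8228 without KI replicate 1 or 2, and 205 and 190 without WT replicate 1 or 2. In CA1 the counts were 1260, 4031 and 7277, and 711 and 753. Dusp1 overlapped between the groups in CA1, at 4.01 and 3.69 in WT and 4.11 and 3.63 in KI (0.10 ± 0.26), and over all nuclei at 5.02 and 5.24 in WT and 5.69 and 4.74 in KI. Its gene model overlaps AC122252.1 on the same strand and Ergic1 on the opposite one, so its counts could be shared. Dusp4 was at 5.48 and 3.58 in WT and 2.48 and 1.68 in KI in inhibitory neurons (-1.06 ± 0.39, edgeR adjusted p = 0.301), and in CA1 at 4.71 and 3.79 against 5.32 and 4.69.

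In the remaining classes the main edgeR setting called no member. At an unadjusted p below 0.05 there were 3 of 6 in CA2 (15.5% of all genes), 2 of 9 in CA3 (21.3%), 1 of 4 in mossy cells (13.4%), 3 of 10 in subicular or cortical neurons (7.66%) and 5 of 10 in inhibitory neurons (14.4%). The count was 2 of 6 in astrocytes (10.3%), 2 of 6 in OPC (12.7%), 0 of 4 in microglia (5.97%), 0 of 1 in Cajal-Retzius cells (7.19%) and 0 of 1 in committed OPC (6.92%). The counts in CA3 and mossy cells are near the share of all genes. With DESeq2, Spred2 was also called in CA3 and inhibitory neurons and no other member in these classes. At the adjusted threshold the share of all genes called by edgeR was 1.93% in CA2, 3.11% in CA3, 1.05% in mossy cells, 0.0125% in inhibitory neurons, 0.033% in Cajal-Retzius cells, and 0% in committed OPC and in microglia, where 104 of 1503 and 480 of 8039 genes had an unadjusted p below 0.05. In mural cells no member had enough counts to test.

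The KI effect was compared between classes in the 7 pairs, and 7 of 63 member-by-pair terms passed. For CA1 against DG 4 of 10 members passed (13.8% of all genes): Spry2, Spred2 (0.53 ± 0.09, edgeR adjusted p = 0.0015), Dusp14 and Dusp5. The Spred2 term was lost without WT replicate 1 (edgeR adjusted p = 0.0619) or WT replicate 2 (0.0701). For inhibitory neurons against DG 2 of 10 passed (4.74%), Spry2 and Spred2 (0.47 ± 0.11, edgeR adjusted p = 0.047). The latter was lost in 5 of 11 alternatives, leaving out any 1 library among them. For CA1 against CA3 1 of 10 passed (3.45%), Spry2. The count was 0 of 9 for CA3 against DG (9.62%), 0 of 10 for inhibitory neurons against CA1 (2.51%), 0 of 7 for astrocytes against oligodendrocytes (0.641%) and 0 of 7 for OPC against oligodendrocytes (0.667%), with 3, 4, 0 and 1 members at an unadjusted p below 0.05, against 21.4%, 13.8%, 8.99% and 8.45% of all genes. These pairs share libraries and classes.

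Among the other genes of the pathway, lists of receptors, ligands, cascade members, targets and other inhibitors were counted with the same edgeR test in the classes where a member was called. Their counts stand against the 7.86% of all genes called in CA1, 9.62% in DG, 0.945% in oligodendrocytes and 0.062% in fibroblasts, and against 26.8%, 29.2%, 14.3% and 6.89% at an unadjusted p below 0.05. In CA1 pyramidal neurons 6 of 12 tested genes known to be induced by ERK were lower and 0 higher, where 2.93% of all genes were lower, with a median log2 change of -0.98. Fos, an immediate early transcription factor, was at 4.01 and 5.17 CPM in WT and 0.564 and 0.0885 in KI, from 51, 56, 7 and 1 UMIs (-3.63 ± 0.56, edgeR adjusted p = 0.015). Egr1, another, was at 16.3 and 17.8 in WT and 3.38 and 3.01 in KI (-2.31 ± 0.20), and Fosl2 at -1.78 ± 0.34. All 3 lacked overlap between the groups.

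In DG granule neurons, where 4.85% of all genes were lower, 3 of 13 were lower, Fos (-2.88 ± 0.58, from 28, 35, 4 and 1 UMIs), Etv1 (-1.75 ± 0.35) and Egr1 (-1.08 ± 0.24), with a list median of -0.08. Etv1, a transcription factor of the ETS family, was at 92.6 and 88.7 in WT and 14.2 and 35.6 in KI. In oligodendrocytes 1 of 10 was lower (0.226% of all genes), Egr1, at 19.5 and 20.8 in WT and 5.57 and 3.02 in KI, or 0.0303 and 0.0334 UMIs per nucleus against 0.00899 and 0.00468. In fibroblasts 0 of 3 were called, with 1 at an unadjusted p below 0.05.

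Receptor tyrosine kinases were lower for 2 of 14 tested in CA1, Met (-1.79 ± 0.39) and Ntrk2 (-0.70 ± 0.10), the receptor of BDNF, at 497 and 482 in WT and 295 and 271 in KI. In DG 3 of 14 were lower, and 1 was higher. The 3 with the largest change were Egfr (-2.05 ± 0.46), Fgfr1 (-0.88 ± 0.19) and, higher, Erbb4 (0.79 ± 0.15). In oligodendrocytes and fibroblasts 0 of 12 and 0 of 11 were called, with 2 in each at an unadjusted p below 0.05. Of the ligands, 1 was higher and 2 lower of 15 in CA1, Nrg3 (0.35 ± 0.08), Fgf1 (-0.86 ± 0.19) and Nrg2 (-0.63 ± 0.13). In DG 2 of 15 were higher and 2 lower, with the largest changes in Fgf10 (-3.31 ± 0.25), Nrg1 (1.76 ± 0.15) and Ntf3 (-1.73 ± 0.36). The count was 0 of 13 in oligodendrocytes, with 8 at an unadjusted p below 0.05, and 0 of 3 in fibroblasts, with 0.

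The relay itself gave counts no higher than the shares of all genes. Of 24 genes from Shc1 and Sos1 to ERK and its kinases, 0 were called in CA1, 1 was lower in DG, the Ras activator Rasgrf2 (219 and 200 in WT, 78.6 and 110 in KI, -1.03 ± 0.15), and 0 of 24 were called in oligodendrocytes and 0 of 17 in fibroblasts. In the 3 classes with no call, 3, 3 and 1 genes had an unadjusted p below 0.05. Of the other MAP kinase phosphatases and inhibitors, 1 of 13 was higher in CA1, Il17rd (1.96 and 1.85 in WT, 9.67 and 5.40 in KI, 2.08 ± 0.38), 0 of 14 were called in DG, 0 of 12 in oligodendrocytes and 0 of 5 in fibroblasts, with 5, 1 and 0 at an unadjusted p below 0.05. The p38 and JNK kinases gave 0 of 10 in CA1, 0 of 10 in DG, 0 of 9 in oligodendrocytes and 0 of 5 in fibroblasts, with 3, 2, 0 and 0 at an unadjusted p below 0.05.

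Since Errfi1 and Dusp1 are also known targets of glucocorticoids, a list of 10 glucocorticoid-induced genes was counted beside them, none of which is a member. In oligodendrocytes 3 of 10 were higher (0.718% of all genes) and 0 lower, with a median of 1.14: Cdkn1a (20.7 and 12.7 in WT, 106 and 77.8 in KI, 2.52 ± 0.27), Ddit4 (1.91 ± 0.26) and Fkbp5 (178 and 166 in WT, 351 and 435 in KI, 1.25 ± 0.17). At an unadjusted p below 0.05, 9 were higher and 1 lower there (14.3% of all genes). In OPC, where no member was called, 2 of 5 were higher (1.10% of all genes), Fkbp5 (1.54 ± 0.24) and Sgk1 (0.77 ± 0.18). All 5 had an unadjusted p below 0.05 there (12.7% of all genes). In DG 1 of 9 was higher, Sgk1 (1.01 ± 0.12). In CA1 1 of 9 was higher, Sgk1 (0.39 ± 0.09), and 1 lower, Zbtb16 (-0.48 ± 0.10). In fibroblasts 0 of 6 were called, with 3 at an unadjusted p below 0.05 and a median of 0.73. Over all nuclei, edgeR called 0 of the 108 genes tested of these lists (0.889% of all genes), with 44 at an unadjusted p below 0.05 (24.3% of all genes). These lists were chosen with earlier results of these data known.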

How the data were processed

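Per the file headers and labels, the authors made the deposited matrices from 10x 3′ v3 libraries with Cell Ranger 7.0.1 on mm10. The deposited values are raw UMI counts, which the authors did not normalize, per gene and nucleus barcode. The use of introns and strand is not given in the sources used here. The 10 members and all gene lists were chosen with earlier results of these data known.

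A nucleus needed 500 or more genes and less than 5% mitochondrial UMIs, and 3263 barcodes with a doublet score above 0.25 were removed (Scrublet in scanpy 1.11.5). Of 67 clusters (leidenalg 0.10.2, 2000 variable genes without the members, resolution 0.5), 32 were named from at least 3 markers raised 2 times. Unnamed clusters held 11.9% and 18.7% of the nuclei in WT and 17.5% and 29.4% in KI. These names were rebuilt and may differ from those of the study, which tested single nuclei with MAST.

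Counts were summed per library for each class of 20 or more nuclei in all libraries, which gave 2 WT and 2 KI sums, and tested with edgeR 4.0.16 (R 4.3.3, its low-count filter, TMM, quasi-likelihood) and Benjamini-Hochberg adjustment over all genes of a class, threshold 0.05. DESeq2 1.42.0 and 12 other settings were tried. All members were named, and of other lists up to 3 genes called per class by size of change. The low counts limit precision. Positions are from GENCODE M21 (GRCm38).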

Additional observations from a re-analysis of the deposited data

Results flagged for a closer look

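For 7 terms the KI effect differed between a pair of classes from the same libraries. Values are on the log2 scale with their SE. Spry2 gave -2.57 ± 0.23 for CA1 against DG (edgeR adjusted p = 6.25e-06), -1.84 ± 0.28 for CA1 against CA3 (edgeR adjusted p = 0.000574) and -1.56 ± 0.26 for inhibitory neurons against DG (edgeR adjusted p = 0.0115). Spred2 gave 0.53 ± 0.09 for CA1 against DG (edgeR adjusted p = 0.00154) and 0.47 ± 0.11 for inhibitory neurons against DG (edgeR adjusted p = 0.0469). Dusp14 gave 0.65 ± 0.19 and Dusp5 gave -1.18 ± 0.35 for CA1 against DG (edgeR adjusted p = 0.0396 and 0.0394). Over 11 alternatives the Dusp5 term ran from -1.39 to -0.45. The term of Spry2 for CA1 against DG was called under all 11 alternatives, at -2.80 to -1.62, the latter with the marker gate. That of Spred2 for CA1 against DG was lost without WT replicate 1 (0.0619) or WT replicate 2 (0.0701), and that of Spry2 for CA1 against CA3 with the marker gate (0.101). Those of Spry2 and Spred2 for inhibitory neurons against DG were lost under 2 and 5 alternatives: the first without WT replicate 2 (0.0862) or KI replicate 2 (0.0639), the second without any 1 library (0.0819 to 0.266) and with median ratio size factors (0.0525). That of Dusp5 was lost under 7, again without any 1 library (0.0596 to 0.313), and that of Dusp14 under 5, among them without WT replicate 1 (0.310), WT replicate 2 (0.15) or KI replicate 1 (0.158).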

How the results depend on the processing

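The 13 single values called were recomputed under 153 alternatives in all, of which 123 stayed called, 30 lost the call in the same direction and 0 changed sign. Spred2 in DG and Spry2 in CA1 were called under all 13 of theirs, with the highest adjusted p 0.0496 and 0.0498. Within classes 5 values were called, and 12 without the filter on low counts, 12 with the replicate block, 7 with DESeq2 and 4 to 19 leaving out 1 library. Over all nuclei 1 was called, and 2 with DESeq2 (Spry2 added, 0.0189), 2 with the replicate block and 0 to 5 leaving out 1 library. For the difference between classes 7 were called, and 11 without the filter, 4 with the marker gate and 4 to 7 leaving out 1 library. For levels between classes 40 were called, and no setting moved the count by over 1.5 times. Leaving out KI replicate 1 or KI replicate 2 gave 19 calls each. The library left alone in a group is then assumed to vary like the other group. The causes were not tested.

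The replicate numbers of the titles only name the libraries: the deviations of same-numbered libraries correlated at 0.08 over all nuclei and from -0.23 (inhibitory neurons) to 0.43 (subicular or cortical neurons) by class. The replicate block added Errfi1 over all nuclei (0.52) and, within classes, Spred1 in DG and CA1, Spry4 in CA1, Spred2 in CA3 and inhibitory neurons, and Errfi1 in astrocytes and OPC.

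Errfi1 lost its call in fibroblasts also with clusters at resolution 1.0 (edgeR adjusted p = 0.0879) and with the marker gate (0.0564), and in oligodendrocytes with the marker gate (0.0622). Without TMM factors, on plain library totals, the median log2 change of all genes in DG moved by -0.13 and the share of calls that were higher from 49.6% to 33.4%. In CA1 the median moved by -0.09 and that share from 62.7% to 49.6%. Counts below about 20 UMIs per library, as for Spry4 in CA1, limit what could be detected.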

Other observations

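Nuclei in clusters without a name were not tested. Spred2 levels there were 173 and 169 CPM in WT against 105 and 102 in KI. Spry2 levels were 11.3 and 12.9 CPM against 7.04 and 7.68, and Errfi1 levels 43.4 and 30.1 CPM against 61.3 and 56.3. For each of the 3 genes the groups did not overlap. In mural cells, with 20 to 30 nuclei per library, Errfi1 had 0 UMIs in both WT libraries and 2 UMIs in each KI library, too few to test.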
